A study of Mus musculus with 6 samples.

Results

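DNA repair genes were followed in cultured mouse macrophages that had or had not received piceatannol. The 46 genes were taken by symbol from a table of 52459 gene symbols and cover 7 classes of repair: homologous recombination (11 genes), the Fanconi anaemia pathway (7), mismatch repair (3), nucleotide excision repair (9), base excision repair (8), non-homologous end joining (4) and damage signalling kinases (4). All 46 were in the table and all 46 passed the filter on low counts, so the counts below cover every gene of the set. RNA was sequenced from bone marrow derived macrophages of C57BL/6 mice grown with GM-CSF, a myeloid growth factor. The groups were 3 control libraries, whose cells received vehicle at day 7 of culture, and 3 piceatannol libraries, whose cells received that compound at day 7, both left overnight. Piceatannol, a stilbene from plants that is close to resveratrol in structure, is used to block the tyrosine kinase Syk. The sources used here give neither its dose nor the vehicle. The labels do not say whether each library had its own culture or animal, so a p-value here covers only the spread among these 6 libraries, part of which may be technical.

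Cells mend DNA by several routes that differ in the lesion they recognise. Base excision repair removes single damaged bases, nucleotide excision repair cuts out bulky lesions, mismatch repair corrects copying errors, and the Fanconi anaemia pathway opens crosslinks between strands. Breaks through both strands are closed either by end joining, which works at any time, or by homologous recombination, which copies the sister chromatid and is known to be confined largely to S and G2 phase. Many recombination and Fanconi genes are accordingly known to be transcribed most in dividing cells.

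Most of the repair genes were lower with piceatannol. At a threshold of 0.05 on p-values from the quasi-likelihood test of edgeR, adjusted by Benjamini-Hochberg over all 15380 tested genes, 31 of the 46 fell, 10 rose and 5 did not pass. Over all tested genes 77% were called, 38.3% lower and 38.8% higher, so the share of repair genes called lower (67.4%) was above that background and the share called higher (21.7%) below it. The falls were also the larger changes. Of the 46 genes, 14 fell at least 2-fold against 16.6% of all tested genes, 6 fell at least 4-fold against 6.35%, and 1, Xrcc5, rose at least 2-fold against 17.5%. Blm, Ercc5 and Lig4 lay just under that bound, and the count of such rises was 4 with upper-quartile scaling and under a stricter filter, 3 without control replicate 1, 2 without control replicate 2 or 3, and 4 without piceatannol replicate 2. The median log2 fold change was -0.52 for the repair genes and 0.01 for all tested genes. In the 31 genes that fell every piceatannol library lay below every control library, and in the 10 that rose every one lay above (39.2% and 39.9% of all tested genes, 79% in either direction). The set was chosen with results of these data known, and no test of the set as a whole was made. In bulk RNA, fewer cells that transcribe a gene and less of its RNA per cell cannot be told apart.

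**Figure D1:**
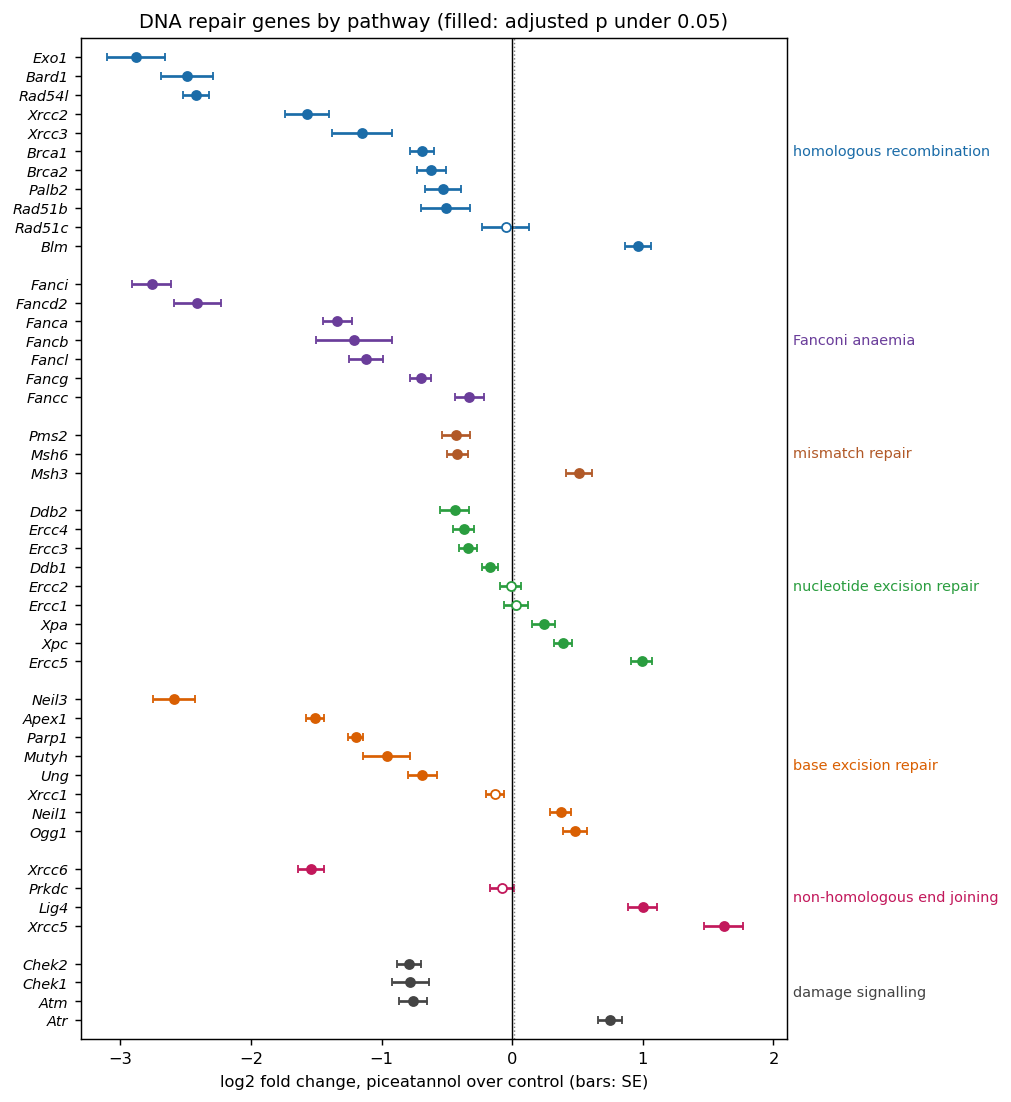
Log2 fold change (x axis, piceatannol over control, bars are SE) of each of the 46 repair genes, grouped by pathway; filled points passed an adjusted p of 0.05 and the dotted line is the median of all tested genes. All 7 Fanconi genes lie left of 0, while the end joining genes run from -1.54 (Xrcc6) to 1.62 (Xrcc5).

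Markers of the cell cycle fell alongside. Of 24 such genes 23 fell (95.8%, against 38.3% of all tested genes). The list's median was -2.21 on the log2 scale, while 1, the cyclin gene Ccne2, rose (0.38, with overlapping groups). Mcm2, a subunit of the replicative helicase, went from 71.2 ± 3.34 to 14.7 ± 0.737 CPM (counts scaled by library total and TMM factor, CPM; SD, n = 3 in each group here and below). The proliferation marker Mki67 went from 180 ± 20.3 to 51.7 ± 14.9 CPM and the sliding clamp gene Pcna from 74.1 ± 5.01 to 43.9 ± 1.81 CPM. Their part in the change of the repair genes was not tested.

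The libraries held 33276569 to 58697084 counts. The counts of called markers below stand beside 38.3% of all tested genes called lower and 38.8% called higher. Macrophage markers such as Lyz2, Csf1r and Cd68 were present in all libraries, and 7 of 10 fell while 2 rose. Their summed level was 21500 to 25800 CPM in control and 16100 to 18000 CPM in piceatannol libraries. Most of the sum was Lyz2 (log2 fold change -0.54), and single markers ran from -3.35 (Fcgr1) to 1.93 (Cd14). Markers of fibroblasts or stromal cells summed to 2280 to 2540 CPM in control and 526 to 590 CPM in piceatannol libraries (6 of 8 lower), and neutrophil markers to 258 to 606 and 34.7 to 41.7 CPM (9 of 11 lower). Dendritic cell markers summed to 1600 to 1730 and 828 to 1030 CPM (6 of 9 lower, 1 higher), mostly from Itgax and Ccr7. Single genes ran from -5.51 (Cd209a) to 0.77 (Clec9a). Markers of haematopoietic progenitors summed to 660 to 696 and 378 to 406 CPM (5 of 8 lower, 3 higher), mostly from Spi1 (-0.98). Here single genes ran from -6.22 (Cd34) to 1.79 (Kit). Endothelial markers summed to 115 to 127 and 413 to 493 CPM (3 of 6 higher), mostly from Vwf, with Tek at 0 to 0.0475 CPM and Emcn at 0 to 0.041 CPM. B cell markers summed to 13.9 to 21.5 and 2.23 to 2.84 CPM (6 of 7 lower), mostly from Ighm. T or NK cell (2.94 to 3.74 and 0.424 to 0.594 CPM, Ncr1 at 0), mast cell or basophil (2.45 to 4.58 and 0.225 to 0.757 CPM, Mcpt4 at 0) and erythroid lists (0.41 to 0.457 and 1.48 to 2.07 CPM) were near the detection limit. Eosinophil markers (19.3 to 21 and 17.5 to 19.5 CPM) and megakaryocyte markers (283 to 309 and 267 to 319 CPM) overlapped between the groups. Mitochondrially encoded genes took 0.777% to 0.866% of the counts in control and 1.87% to 2.65% in piceatannol libraries. The part of these shifts in the repair genes' values was not tested.

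**Figure D2:**
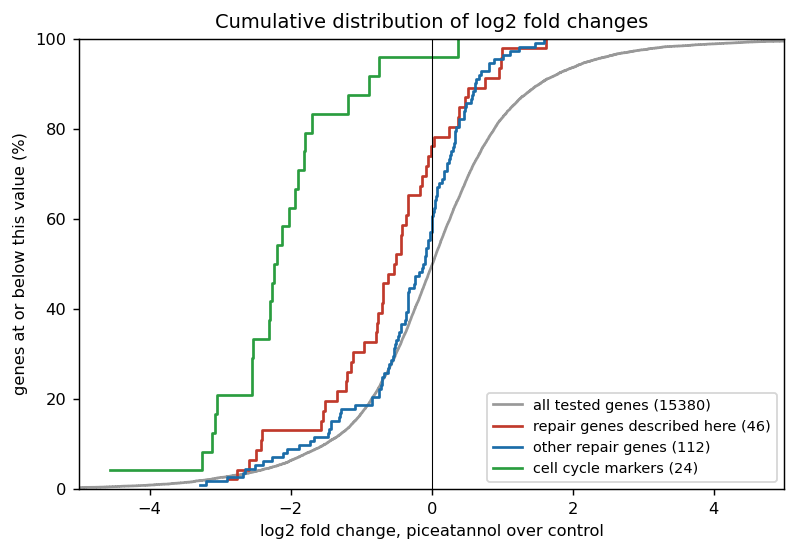
Cumulative share of genes (y axis, %) at or below each log2 fold change (x axis) for all 15380 tested genes, the 46 repair genes, 112 other repair genes and 24 cell cycle markers. The repair genes lie left of all tested genes over most of the range and end at 1.62, and the cell cycle markers lie further left, with a median of -2.21.

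Promoter sequences of 39 of the 46 genes were at hand (RefSeq, build GRCm38.p6, 250 bases before to 50 bases after a transcription start, 44 starts in all). Entries were missing for Exo1, Xpc, Ddb2, Prkdc, Xrcc2, Ercc3 and Fancd2. The windows were searched on both strands for E2F-type words (TTTCCCGC, TTTGGCGC, TTTGCCGC and TTTCGCGC, bound by the E2F factors of S phase genes), for the CCAAT box bound by NF-Y (CCAAT) and for the cell cycle homology region (TTTGAA). The promoters below belong to the genes whose values the results turn on. Lig4 and Xrcc5 had the highest, and Fanci and Neil3 the lowest, log2 fold changes among called genes with a mean of at least 2 on the log2 CPM scale and a promoter in the table. Xrcc6, the partner of Xrcc5, and Brca1 and Chek2, which share their start region with a neighbour that moved the other way, were added after their values were seen. Capitals mark E2F-type words and CCAAT boxes, on either strand, and each sequence runs 5′ to 3′ along the gene's strand.
Xrcc5 (chr1:72307171-72307470, plus strand): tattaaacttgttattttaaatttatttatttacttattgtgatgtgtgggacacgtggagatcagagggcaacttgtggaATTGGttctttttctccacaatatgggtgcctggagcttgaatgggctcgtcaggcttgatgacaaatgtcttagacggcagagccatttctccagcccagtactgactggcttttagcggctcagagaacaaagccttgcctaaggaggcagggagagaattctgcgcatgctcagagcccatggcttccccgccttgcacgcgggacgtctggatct
Xrcc6 (chr15:82016119-82016418, plus strand): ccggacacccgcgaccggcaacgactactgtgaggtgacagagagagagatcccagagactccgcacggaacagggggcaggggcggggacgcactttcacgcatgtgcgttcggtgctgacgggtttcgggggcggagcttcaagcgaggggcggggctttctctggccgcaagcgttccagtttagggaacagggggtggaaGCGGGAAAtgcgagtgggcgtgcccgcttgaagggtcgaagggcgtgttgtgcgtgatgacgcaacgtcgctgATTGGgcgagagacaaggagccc
Lig4 (chr8:9977631-9977930, minus strand): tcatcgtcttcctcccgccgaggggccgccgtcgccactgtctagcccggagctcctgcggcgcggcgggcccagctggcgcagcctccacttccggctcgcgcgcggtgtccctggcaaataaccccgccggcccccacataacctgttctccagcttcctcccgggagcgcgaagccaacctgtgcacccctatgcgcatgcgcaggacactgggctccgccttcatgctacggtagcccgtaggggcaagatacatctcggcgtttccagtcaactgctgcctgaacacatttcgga
Fanci (chr7:79392088-79392387, plus strand): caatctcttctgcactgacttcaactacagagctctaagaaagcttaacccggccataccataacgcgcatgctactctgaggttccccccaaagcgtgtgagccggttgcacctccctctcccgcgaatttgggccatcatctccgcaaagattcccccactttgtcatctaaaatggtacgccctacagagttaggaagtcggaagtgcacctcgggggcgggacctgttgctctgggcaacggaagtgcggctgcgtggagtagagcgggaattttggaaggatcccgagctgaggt
Neil3 (chr8:53639016-53639315, minus strand): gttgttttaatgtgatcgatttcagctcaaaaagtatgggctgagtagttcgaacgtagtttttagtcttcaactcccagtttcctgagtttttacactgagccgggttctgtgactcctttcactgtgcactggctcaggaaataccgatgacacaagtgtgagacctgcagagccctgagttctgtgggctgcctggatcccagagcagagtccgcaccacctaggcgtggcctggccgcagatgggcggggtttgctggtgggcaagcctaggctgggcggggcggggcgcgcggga
Brca1 (chr11:101551906-101552205, minus strand): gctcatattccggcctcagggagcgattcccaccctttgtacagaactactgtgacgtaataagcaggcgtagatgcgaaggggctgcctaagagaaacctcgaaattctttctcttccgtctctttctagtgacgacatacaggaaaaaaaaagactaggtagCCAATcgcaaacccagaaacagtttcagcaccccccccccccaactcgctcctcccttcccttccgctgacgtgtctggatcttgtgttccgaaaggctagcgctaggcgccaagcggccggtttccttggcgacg
Chek2 (chr5:110839733-110840032, plus strand): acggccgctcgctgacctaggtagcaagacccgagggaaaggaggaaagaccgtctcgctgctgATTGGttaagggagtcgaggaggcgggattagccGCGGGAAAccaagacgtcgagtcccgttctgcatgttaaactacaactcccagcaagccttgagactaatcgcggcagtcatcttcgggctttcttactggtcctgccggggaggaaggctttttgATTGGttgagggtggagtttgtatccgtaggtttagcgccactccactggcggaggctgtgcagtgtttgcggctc

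The Xrcc6 start in this table lies inside the longer gene span of the annotation used for positions. In its promoter an E2F-type word (GCGGGAAA on the strand shown) begins 46 bases before the start and a reversed CCAAT box (ATTGG) 27 bases after it. The Xrcc5 promoter has a reversed CCAAT box 169 bases before the start and no E2F-type word. In the Chek2 promoter an E2F-type word begins 152 bases and reversed CCAAT boxes begin 186 and 26 bases before the start. Brca1 has a CCAAT box 86 bases before its start. The windows shown for Fanci, Neil3 and Lig4 hold neither, which says only that these letters are not in these 300 bases. Lig4 has another listed start, whose window also holds neither.

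Over the 44 starts, 20.5% held an E2F-type word against 2.26% of all 32851 promoters in the table and 3.72% of the promoters of tested genes. The genes with such a word were Bard1, Fancg, Chek2, Brca2, Xrcc6 and Msh6, which fell, Msh3, which rose, and Rad51c, which did not pass. Rad54l, Mutyh, Rad51b, Rad51c and Lig4 have a pair of listed starts each, so starts are not independent. Counted by gene, the word was in 6 of the 26 repair genes that fell and 1 of the 9 that rose, and the difference was not tested. Of all tested genes with a promoter 4.5% held it, 5.22% of those called lower and 3.99% of those called higher. In the narrower window of 100 bases before to 50 after the start it was in 11.4% of the repair gene starts, 1.27% of all promoters and 2.07% of those of tested genes. A CCAAT box was in 59.1% of the repair gene starts, 37.4% of all promoters and 37.3% of those of tested genes. By gene it was in 16 of the 26 that fell and 5 of the 9 that rose, against 42.6% of tested genes with a promoter. Over all tested genes with a promoter it was in 42.3% of those called lower and 42.6% of those called higher. In the narrower window it was in 12 of the 26 and 0 of the 9, against 26.3% of all genes with a promoter and 29.1% of the tested ones. There the box was nearly as frequent in all tested genes called higher (28.5%) as in those called lower (29.5%). The difference between repair genes that fell and repair genes that rose was not tested. The cell cycle homology word was in 6.82% of the repair gene starts, 17.9% of all promoters and 12.3% of those of tested genes, and no E2F-type word overlapped another motif. Matches of letters are a description and show no binding.

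Homologous recombination genes fell in 9 of 11 cases (81.8%, against 38.3% of all tested genes). The falls at least 4-fold in size were those of Exo1, Bard1 and Rad54l. EXO1 is a nuclease that resects broken ends. Exo1 (chr1:175880581-175913489, GRCm38, as all positions) had 7.29, 8.2 and 6.99 CPM in control and 0.831, 0.605 and 1.49 CPM in piceatannol libraries, which is -2.88 ± 0.22 as log2 fold change and SE (adjusted p = 1.19e-09, edgeR). These low values rest on 20 to 73 counts per piceatannol library. RAD54L is a motor protein of the search for homology, and its gene (chr4:116094264-116123690) was the steadiest of the 3. Rad54l had 22.6, 21.6 and 20.6 CPM in control and 3.94, 3.75 and 4.32 CPM in piceatannol libraries (-2.42 ± 0.10, adjusted p = 2.64e-14, edgeR). Of its exon bases 15.4% are shared with Lrrc41 on the other strand, which rose (0.49).

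Brca1 and Brca2 fell, as did Bard1 and Palb2, genes of partners of the BRCA proteins. BRCA1 works as a dimer with BARD1. Bard1 (chr1:71027498-71103146) went from 6.83, 6.45 and 6.85 CPM in control to 1.42, 0.636 and 1.41 CPM with piceatannol, a fall of 2.49 on the log2 scale (SE 0.20, adjusted p = 1.08e-09, edgeR). Its piceatannol values rest on 21 to 69 counts per library. Brca1 (chr11:101488764-101551955) had 25.4, 22.4 and 20.8 CPM in control and 14.5, 13 and 14.7 CPM in piceatannol libraries, which is -0.69 ± 0.09 as log2 fold change and SE (adjusted p = 1.02e-06, edgeR). Every piceatannol library of both genes lay below every control library. Brca2 (chr5:150522630-150570329) had 10.8, 8.98 and 10.1 CPM in control and 6.22, 6.66 and 6.66 CPM in piceatannol libraries (-0.62 ± 0.11, adjusted p = 6.57e-05, edgeR). Palb2, whose product bridges BRCA1 and BRCA2, fell from 8.2 ± 0.875 to 5.69 ± 1.04 CPM (-0.53). Brca1, Palb2 and Brca2 thus lay between -0.69 and -0.53 on the log2 scale, and Bard1 at -2.49; the difference between the genes was not tested.

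The genes of accessory recombination proteins moved by different amounts. Xrcc2 fell from 5.36 ± 0.552 to 1.79 ± 0.217 CPM (log2 fold change -1.57) and Xrcc3 from 4.18 ± 0.528 to 1.88 ± 0.707 CPM (-1.15). Rad51b fell from 2.67 ± 0.192 to 1.89 ± 0.216 CPM (-0.51, adjusted p = 0.0181, edgeR), a call lost without control replicate 1 (adjusted p = 0.0696), control replicate 3 (0.051) or piceatannol replicate 3 (0.0816). Rad51c, whose product sits in complexes with both XRCC2 and XRCC3, had 2.78, 2.67 and 2.62 CPM in control and 2.73, 2.12 and 2.91 CPM in piceatannol libraries. Its groups overlapped and its log2 fold change of -0.05 had a 95% interval of -0.42 to 0.33, so a change of the size seen in Xrcc2 lay outside the interval.

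Blm was the 1 recombination gene that rose. It encodes the Bloom syndrome helicase, which dissolves recombination intermediates. Blm (chr7:80454733-80535119) had 16, 12.3 and 14.4 CPM in control and 29.6, 25.4 and 28 CPM in piceatannol libraries, which is 0.96 ± 0.10 as log2 fold change and SE (adjusted p = 1.61e-08, edgeR). The lowest piceatannol library lay above the highest control library. No exon base of Blm is shared with another gene.

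All 7 Fanconi anaemia genes fell, against 38.3% of all tested genes. The 2 genes of the FANCI and FANCD2 clamp, which is ubiquitinated when a crosslink stalls a fork, fell most. Fanci (chr7:79391929-79450264) had 11.6, 10.4 and 9.99 CPM in control and 1.85, 1.27 and 1.56 CPM in piceatannol libraries, which is -2.76 ± 0.15 as log2 fold change and SE (adjusted p = 1.35e-12, edgeR). Fancd2 (chr6:113531682-113597017) had 14.3, 11.2 and 12.2 CPM in control and 3.13, 1.6 and 2.27 CPM in piceatannol libraries (-2.41 ± 0.18, adjusted p = 2.89e-09, edgeR). All piceatannol libraries of both genes lay far below the lowest control library. Fanci shares 16% of its exon bases with Polg on the other strand, which fell less (-0.31).

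The other Fanconi genes encode parts of the core ubiquitin ligase that acts on this clamp. Fanca (chr8:123268300-123318576), a scaffold subunit, had 19.1, 19 and 19.9 CPM in control and 7.41, 6.39 and 9.01 CPM in piceatannol libraries (-1.34 ± 0.11, adjusted p = 8.7e-10, edgeR). It shares 10.5% of its exon bases with Zfp276 on the other strand, which did not pass (-0.11). Fancl, the catalytic subunit, fell from 7.78 ± 0.445 to 3.57 ± 0.179 CPM (-1.12) and Fancb from 2.39 ± 0.272 to 1 ± 0.509 CPM (-1.21). Fancl shares 13.7% of its exon bases with Vrk2, which rose (0.33). Fancg fell from 25.1 ± 1.8 to 15.5 ± 0.492 CPM (-0.70). Fancc fell least, from 9.35 ± 0.501 to 7.45 ± 0.487 CPM (-0.33, adjusted p = 0.012, edgeR), a call lost without control replicate 3 (adjusted p = 0.0541). The antisense gene Gm16133, which shares 16.4% of the Fancc exon bases, rose (4.11). Whether the counting used strand is not stated in the sources used here.

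**Figure D3:**
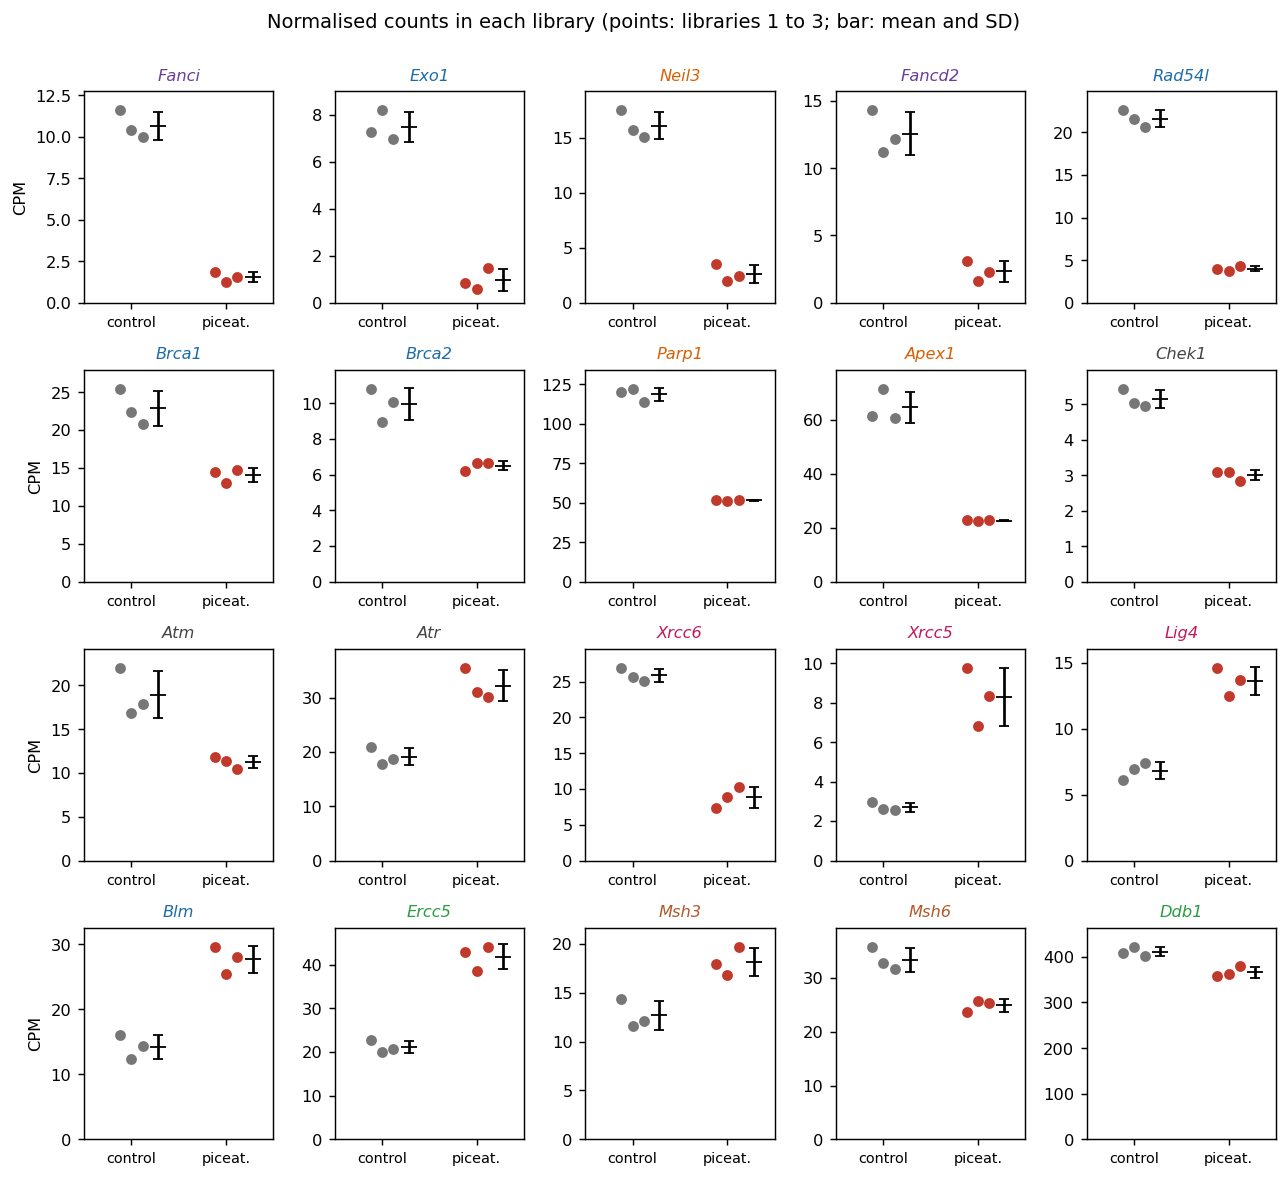
Normalised counts (y axis, CPM, from 0) of 20 repair genes in each of the 3 control and 3 piceatannol libraries, with mean and SD beside the points; panel titles are coloured by pathway as in the plot of fold changes. All 20 were picked from the called genes and the 5 that did not pass are not shown, so the groups are apart in every panel by choice. They are apart in 79% of all tested genes. The change is upward in Atr, Xrcc5, Lig4, Blm, Ercc5 and Msh3 and downward in the other 14.

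Mismatch repair genes moved in both directions. MSH6 and MSH3 serve in mismatch recognition, MSH6 for single mismatches and MSH3 for longer loops. Msh6 (chr17:87975062-87990892) fell from 35.8, 32.7 and 31.6 CPM in control to 23.6, 25.8 and 25.3 CPM (-0.42 ± 0.08, adjusted p = 4.18e-05, edgeR). Msh3 (chr13:92211872-92355003) rose from 14.4, 11.6 and 12.1 CPM in control to 17.9, 16.8 and 19.7 CPM (0.51 ± 0.10, adjusted p = 0.000115, edgeR). Msh6 and Msh3 were therefore called in opposite directions, with no overlap between groups in either. Pms2, of the endonuclease that follows them, had 13.6, 10.6 and 10.8 CPM in control and 8.86, 8.11 and 8.95 CPM in piceatannol libraries (-0.43 ± 0.11, adjusted p = 0.00196, edgeR). It shares 4.85% of its exon bases with Gm42421 and 1.05% with Rsph10b, both on the same strand, the latter of which rose (2.45).

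Nucleotide excision repair genes moved both ways, and Ercc5 changed most (0.99 on the log2 scale). Of 9 genes 4 fell (44.4%, against 38.3% of all tested genes), 3 rose (33.3%, against 38.8%) and 2 did not pass. None reached 2-fold, and the median log2 fold change was -0.01, near that of all tested genes (0.01). Among the damage sensors, Xpc rose and the genes of the UV-damaged DNA binding dimer fell. Xpc (chr6:91489305-91515888) had 28.5, 26.7 and 28.1 CPM in control and 33.9, 38.4 and 36.9 CPM in piceatannol libraries (0.39 ± 0.07, adjusted p = 6.77e-05, edgeR). Ddb2 (chr2:91211572-91236982) had 12, 10.7 and 11.7 CPM in control and 8.1, 7.63 and 9.62 CPM in piceatannol libraries (-0.44 ± 0.11, adjusted p = 0.00142, edgeR). Of the Ddb2 exon bases 23.8% are shared with Acp2 on the other strand, which fell further (-1.66). Its partner Ddb1, also an adaptor of CUL4 ubiquitin ligases, fell from 411 ± 9.89 to 366 ± 12.1 CPM (-0.17, adjusted p = 0.0142, edgeR), a call lost with upper-quartile scaling (adjusted p = 0.0891) and with a stricter filter (0.0872).

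The verification factor Xpa had 14.9, 16.1 and 15.6 CPM in control and 17.5, 18.1 and 19.2 CPM in piceatannol libraries (0.24 ± 0.09, adjusted p = 0.0164, edgeR). That call was lost without control replicate 1 (adjusted p = 0.0835) or piceatannol replicate 3 (0.067), with no filter (0.0573) and with DESeq2 (0.0512). Of the helicase genes of TFIIH, which opens the lesion, Ercc3 fell from 65.7, 69.7 and 68.4 CPM to 51.6, 57.5 and 51.7 CPM (-0.34 ± 0.07, adjusted p = 7.97e-05, edgeR). Ercc2, the other helicase gene, had 44.1, 47.8 and 47.4 CPM in control and 39.8, 50 and 48.6 CPM in piceatannol libraries, with overlapping groups and a log2 fold change of -0.01 (95% interval -0.17 to 0.16). It shares 42.7% of its exon bases with other genes, among them Klc3, which fell (-0.80).

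The nucleases that cut on each side of the lesion went different ways. Ercc5 (chr1:44147744-44181260), of the nuclease XPG on the 3′ side, had 22.7, 20 and 20.7 CPM in control and 43, 38.5 and 44.1 CPM in piceatannol libraries, which is 0.99 ± 0.08 as log2 fold change and SE (adjusted p = 3.95e-10, edgeR). Ercc4, of the nuclease XPF on the 5′ side, fell from 28.1, 28.9 and 28.1 CPM to 19.1, 23.8 and 23.2 CPM (-0.37 ± 0.08, adjusted p = 0.000596, edgeR). The gene of its partner, Ercc1, had 18.8, 19.8 and 19.5 CPM in control and 17.5, 21.6 and 20.5 CPM in piceatannol libraries, a log2 fold change of 0.03 with a 95% interval of -0.15 to 0.22. The value of Ercc5 passed 2-fold with upper-quartile scaling and under the stricter filter (1.04 each), without control replicate 1 (1.03) and without piceatannol replicate 2 (1.04). The groups of Ercc1 overlapped, and those of Ercc4 and Ercc5 did not.

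Of 8 base excision repair genes 5 fell (62.5%, against 38.3% of all tested genes) and 1 did not pass. The 2 that rose (25%, against 38.8%) were both of glycosylases. Glycosylases are the enzymes that recognise and remove a damaged base. Ogg1 (chr6:113326972-113335068), whose product removes oxidised guanine, had 14.7, 15.2 and 16.8 CPM in control and 20.4, 22.6 and 22 CPM in piceatannol libraries (0.48 ± 0.09, adjusted p = 4.63e-05, edgeR). Of its exon bases 10.6% are shared with Camk1 on the other strand, which fell (-0.68). Neil1 (chr9:57142800-57148305), of a glycosylase for oxidised pyrimidines, rose from 14.2, 15.8 and 15 CPM to 19.7, 19 and 19.6 CPM (0.37 ± 0.08, adjusted p = 0.000479, edgeR). Its relative Neil3 (chr8:53586867-53639065), known to be made in proliferating cells, fell from 17.5, 15.7 and 15.1 CPM to 3.56, 1.97 and 2.4 CPM (-2.59 ± 0.16, adjusted p = 7.25e-11, edgeR). Per gene length, Neil1 went from 8.03 ± 0.445 to 10.2 ± 0.157 FPKM and Neil3 from 2.9 ± 0.226 to 0.467 ± 0.146 FPKM. Ung, of the uracil glycosylase, fell from 11.7 ± 0.671 to 7.22 ± 0.725 CPM (-0.69), and Mutyh, which removes adenine opposite oxidised guanine, from 3.32 ± 0.204 to 1.71 ± 0.0928 CPM (-0.96). The 5 glycosylase genes of the set thus counted 2 rises and 3 falls.

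Apex1 and Parp1, the base excision genes with the highest control FPKM, both fell more than 2-fold. Apex1 (chr14:50924968-50927139) encodes the endonuclease that cuts the site left by a glycosylase. It had 61.6, 71.4 and 60.8 CPM in control and 22.7, 22.4 and 22.8 CPM in piceatannol libraries, which is -1.51 ± 0.07 as log2 fold change and SE (adjusted p = 2.14e-13, edgeR). Of its exon bases 61.7% are shared with a gene on the other strand listed as Tmem55b (now Pip4p1), which did not pass (0.02), so the Apex1 value depends on how shared reads were counted. Parp1 (chr1:180568924-180601254), of the polymerase that marks strand breaks with poly(ADP-ribose), had 120, 122 and 114 CPM in control and 51.6, 51.3 and 51.6 CPM in piceatannol libraries (-1.20 ± 0.06, adjusted p = 2.52e-13, edgeR). The 3 piceatannol libraries of each gene were nearly level, and all lay below the controls. Xrcc1, the scaffold recruited by PARP1, had 42.5, 47.7 and 46.7 CPM in control and 40.3, 39.6 and 45.4 CPM in piceatannol libraries (-0.13, 95% interval -0.28 to 0.02, adjusted p = 0.117, edgeR). Its groups overlapped, and it passed without control replicate 1 (adjusted p = 0.0454) or piceatannol replicate 3 (0.0289).

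The genes of the Ku dimer went in opposite directions. Ku, made of Ku70 (Xrcc6) and Ku80 (Xrcc5), is the ring that slides onto broken ends and starts end joining, and each subunit is known to need the other for stability. Xrcc6 (chr15:81987835-82040085) had 26.9, 25.6 and 25.1 CPM in control and 7.39, 8.87 and 10.3 CPM in piceatannol libraries, which is -1.54 ± 0.10 as log2 fold change and SE (adjusted p = 3.79e-11, edgeR). It shares 7.69% of its exon bases with Desi1 on the other strand, which fell (-0.61). Xrcc5 (chr1:72307421-72394952) had 2.97, 2.62 and 2.54 CPM in control and 9.76, 6.81 and 8.33 CPM in piceatannol libraries, which is 1.62 ± 0.15 (adjusted p = 6.25e-09, edgeR). Per gene length the order of the 2 genes turned, from 5.78 ± 0.213 FPKM for Xrcc6 and 1.06 ± 0.0889 FPKM for Xrcc5 in control to 1.95 ± 0.32 and 3.2 ± 0.555 FPKM with piceatannol (FPKM are fragments per gene length, here with the libraries scaled as median-of-ratios factors would scale them). The Xrcc5 counts were low, 115 to 157 per control library and 225 to 411 per piceatannol library, and no exon base of Xrcc5 is shared with another gene.

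Lig4, of the ligase that seals the ends, rose and Prkdc, of the DNA-dependent kinase that Ku recruits, did not pass. Lig4 (chr8:9969049-9977686) had 6.09, 6.97 and 7.41 CPM in control and 14.6, 12.5 and 13.7 CPM in piceatannol libraries (1.00 ± 0.11, adjusted p = 7.83e-08, edgeR). Prkdc (chr16:15637866-15842235) had 28.1, 22.6 and 25.2 CPM in control and 25.9, 24.8 and 21 CPM in piceatannol libraries, with overlapping groups and a log2 fold change of -0.08 (95% interval -0.28 to 0.11).

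Of the kinases that signal damage, Atr rose while Atm, Chek1 and Chek2 fell. ATM responds to breaks through both strands and acts on CHK2, and ATR responds to exposed single strands at stalled forks and acts on CHK1. Atm (chr9:53439149-53536740) had 22, 16.9 and 17.9 CPM in control and 11.8, 11.4 and 10.5 CPM in piceatannol libraries (-0.76 ± 0.11, adjusted p = 1.64e-06, edgeR). Chek2 (chr5:110839979-110874145) had 23.9, 22.2 and 24.7 CPM in control and 13.5, 12.6 and 14.6 CPM (-0.79 ± 0.09, adjusted p = 6.39e-08, edgeR). Both genes of the ATM branch were lower in every piceatannol library than in any control. Atr (chr9:95857597-95951781) had 20.9, 17.8 and 18.7 CPM in control and 35.5, 31 and 30.2 CPM in piceatannol libraries (0.75 ± 0.09, adjusted p = 1.01e-07, edgeR). Its effector Chek1 (chr9:36708482-36727065) went from 5.43, 5.04 and 4.96 CPM to 3.09, 3.09 and 2.83 CPM (-0.78 ± 0.14, adjusted p = 6.31e-05, edgeR). No group overlapped in any of the 4 genes. The antisense gene Gm16794, which shares 1.96% of the Atr exon bases, rose (1.11).

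Compared per gene length, the set spanned a wide range. In control the highest level was that of Ddb1 at 98.9 ± 2.68 FPKM, followed by Apex1 at 45.5 ± 4.29, Ercc3 at 24 ± 0.772 and Parp1 at 22.4 ± 0.779 FPKM, and in every control library Ercc3 lay above Parp1. The lowest were Rad51c (0.613 ± 0.0153 FPKM), Rad51b (0.713 ± 0.0503) and Brca2 (0.73 ± 0.0656), the latter pair within their spread. With piceatannol Ddb1 (86.8 ± 2.78 FPKM) and Ercc3 (18.6 ± 1.25 FPKM) led, and Exo1 was lowest at 0.113 ± 0.0513 FPKM. Blm, at 1.62 ± 0.21 FPKM in control, was below Brca1 at 2.68 ± 0.278 FPKM, and with piceatannol above it (3.1 ± 0.226 and 1.63 ± 0.102 FPKM). Across the 46 genes Spearman's rho between control FPKM and log2 fold change was 0.09, a description over genes of the same libraries. The authors' gene lengths, read from the ratio of counts to FPKM, were 0.996 to 1 times the summed exon length in GENCODE M21 for every gene of the set except Msh6 (a ratio of 0.979) and Ddb1 (0.648), so the level of Ddb1 rests on a shorter gene model.

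**Figure D4:**
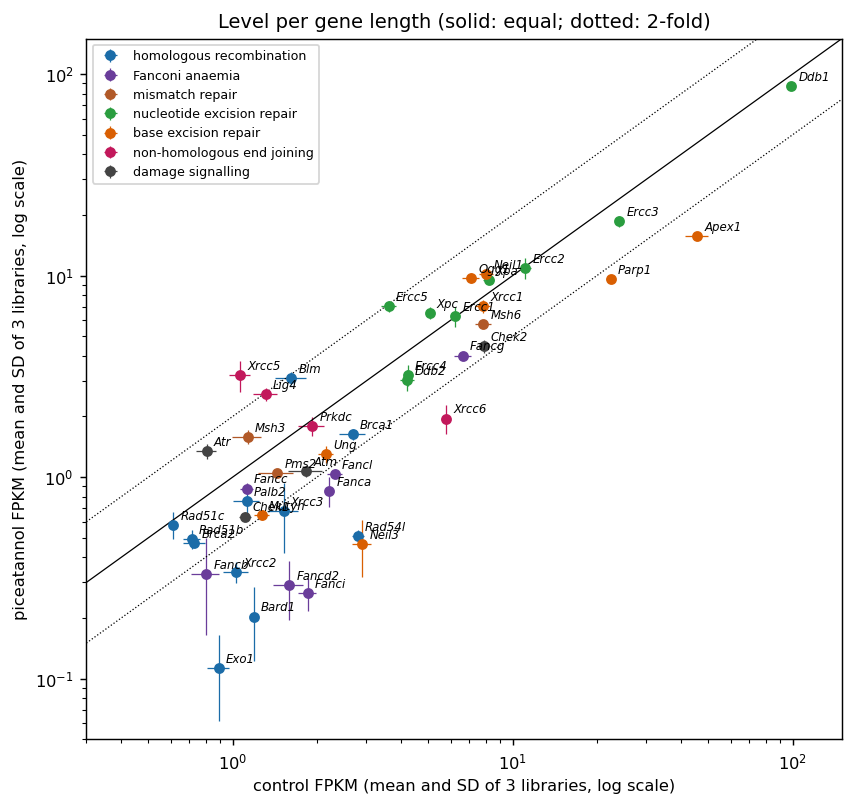
Level per gene length of the 46 repair genes in control (x axis) and piceatannol (y axis) libraries, as mean and SD of FPKM on log axes; the solid line marks equal levels and the dotted lines 2-fold. Xrcc5 lies furthest above the lines and Exo1, Fanci, Bard1, Fancd2, Neil3 and Rad54l furthest below.

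Of the 46 genes 17 lie head to head with another protein-coding gene, with starts on opposite strands at most 1000 bases apart, or overlapping by at most 200. In 12 of these pairs both genes were called, and in 10 they were called in opposite directions. Over all 711 such pairs of tested genes, 427 had both genes called and 171 of these (40%) in opposite directions. Nbr1, of an autophagy receptor, starts 194 bases from Brca1 and rose (1.64) while Brca1 fell (-0.69). Hscb, of a mitochondrial iron-sulfur co-chaperone, starts 202 bases from Chek2 and rose (0.81) while Chek2 fell (-0.79), and Npat starts 307 bases from Atm and rose (0.58) while Atm fell (-0.76). Emc3, 30 bases from Fancd2, rose slightly (0.17) against the fall of Fancd2 (-2.41). Other opposite calls also rested on small rises of the partner. These were Pomgnt1 beside Rad54l (0.19), Aimp2 beside Pms2 (0.27), Mospd2 beside Fancb (0.30), Toe1 beside Mutyh (0.30) and Zfyve26 beside Rad51b (0.43). In the pair of Xpc (0.39) and the splicing gene Lsm3 (-0.71), 40 bases apart, the repair gene was the one that rose. Apex1 and Osgep, 75 bases apart, fell together (-1.51 and -1.82), as did Palb2 and Dctn5 (-0.53 and -0.51). Prkdc (-0.08) did not pass while the replication helicase gene Mcm4, 466 bases away, fell by 1.94 on the log2 scale. The promoters printed above for Brca1 and Chek2 hold the stretch between these starts. These genes were singled out after their values were seen.

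A list of 112 other repair genes gave the wider pathways. All were tested, and 50 fell (44.6%), 33 rose (29.5%) and 29 did not pass, with a median log2 fold change of -0.11. This split was nearer to that of all tested genes (38.3% lower, 38.8% higher) than that of the 46. Of 24 other recombination genes 14 fell (58.3%) and 7 rose (29.2%). Of the falls 10 were at least 2-fold, a fall seen in 16.6% of all tested genes. Dna2, of a resection nuclease, fell by 3.29 on the log2 scale (96 ± 3.55 CPM in control, 9.85 ± 0.824 CPM with piceatannol), and Rad51ap1 by 2.50. Rad52, of an annealing protein, rose (1.01), as did the nuclease scaffold gene Slx4 (0.48).

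The other Fanconi genes did not share the uniform fall. Of 10, 3 fell, 2 rose and 5 did not pass, among them the E2 enzyme gene Ube2t (-0.71) and the deubiquitinase gene Usp1 (-0.33) lower and Faap100 (0.63) and the USP1 cofactor gene Wdr48 (0.28) higher. Of 21 other nucleotide excision genes 9 fell and 5 rose. That is 42.9% lower and 23.8% higher, and the other Fanconi genes counted 30% and 20%, against 38.3% and 38.8% of all tested genes. The DNA ligase gene Lig1 (-2.11) and the single-strand binding gene Rpa1 (-1.30), both also of replication, fell, and Ercc6 (1.60) and Uvssa (1.24), of the transcription-coupled branch, rose. Ercc6 went from 39.9 ± 3.7 to 121 ± 3.89 CPM.

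Of 18 other base excision genes 8 fell and 6 rose, with the flap endonuclease gene Fen1 (-1.28) and Parp2 (-0.61) lower and the glycosylase gene Neil2 (1.46) and Aplf (1.11) higher. Of 8 other end joining genes 4 fell and 2 rose, with Rif1 (-0.53) and Trp53bp1 (-0.43), which hold back resection, lower and the polymerase gene Polm (0.81) and Nhej1 (0.39) higher. Of 16 other signalling genes 8 fell and 5 rose. Timeless, of fork protection, fell from 28.2 ± 1.56 to 3.04 ± 0.222 CPM (-3.20) and the ATR activator gene Topbp1 from 119 ± 7.67 to 28.8 ± 0.86 CPM (-2.05), while the clamp loader gene Rad17 (0.62) and Uimc1 (0.46) rose. Translesion synthesis and direct reversal, with 11 genes, counted 6 rises and 2 falls, among them Rad18 (0.89) and Rev1 (0.61) higher and Hltf (-0.51) and Polh (-0.46) lower. As shares called lower and higher, these were 44.4% and 33.3% for base excision, 50% and 25% for end joining, and 50% and 31.2% for signalling. Translesion synthesis and direct reversal had 18.2% and 54.5%, and all tested genes 38.3% and 38.8%. The differences between pathways were not tested.

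**Figure D5:**
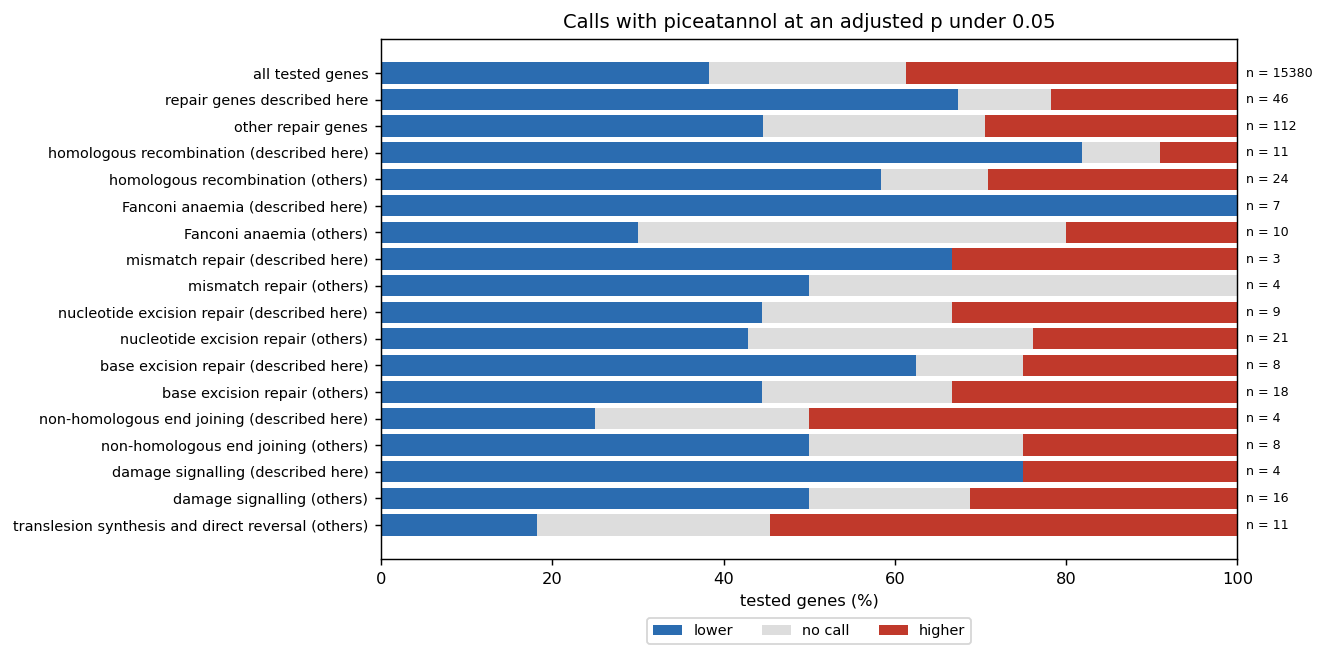
Share of tested genes (x axis, %) called lower, not called or called higher with piceatannol, for all tested genes, the 46 repair genes and the 112 other repair genes, each also by pathway, with the number tested at the right. The Fanconi genes described here are all lower (7 of 7), while the other Fanconi genes divide into 3 lower, 5 without a call and 2 higher.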

How the data were processed

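RNA from 6 libraries was sequenced with an Illumina TruSeq kit from 1 µg of total RNA, per the labels' protocols. The deposited tables hold the authors' raw counts and their FPKM values by gene symbol, with a column for each library. The submitters' processing notes name bcl2fastq, STAR, featureCounts and DESeq2 and the builds mm10 and GRCm38, with no strand setting. Between libraries, the deposited FPKM are scaled as median-of-ratios factors would scale them (for control replicate 1, 1.126 for both). Groups came from the titles. Counts were filtered with filterByExpr (minimum count 10), scaled by TMM and tested with edgeR 4.0.16 in R 4.3.3, quasi-likelihood, two-sided, without covariates; the SE is the log2 fold change over the square root of F. The test was also run on simulated counts in which few genes changed and all had the same dispersion. These data differ in both, so that run does not bear on the share of genes called here. Library pairs within a group differed by more than counting noise (chi-square per degree of freedom 9.88 to 18.1). The titles number the libraries within each group and state no pairing. Deviations of same-numbered libraries correlated at 0.115, 0.121 and 0.134 across genes, and those of other pairs across the groups at 0.00575 or less. The main test used no pairing. Positions are those of GENCODE M21. The genes, lists and tests were chosen with earlier results of these data known. Every gene of the set is named; library values are given for the 3 smallest p per direction in a pathway, uncalled genes, mismatch repair genes and a fixed list of 10. Of other repair genes the 2 smallest p per direction are named, except a few genes that are not reported here. Alternatives were RLE, upper-quartile and total scaling, no filter, a stricter filter (3 libraries at CPM 5 or above), DESeq2 1.42.0, limma 3.58.1 (voom, and log2(FPKM + 1) or log2(FPKM + 0.1)), the replicate block, a threshold of 0.01, glmTreat against 1.5-fold and leaving out each library.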

Additional observations from a re-analysis of the deposited data

How the results depend on the processing

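Every called repair gene kept its direction under each alternative to the test that included it. The stricter filter left 40 of the 46 genes and dropped Rad51b, Rad51c, Xrcc3, Fancb, Mutyh and Chek1. With the replicate number as a block, the fit called the same numbers of repair genes, 31 lower and 10 higher, and changed no call among them. Over all tested genes it called 12012. Testing against a 1.5-fold change left 17 repair genes lower and 5 higher, 24 and 8 of the other repair genes, and 6576 of all genes. On log2(FPKM + 1), which compresses low genes, 7 repair genes fell at least 2-fold. The count of rises of at least 2-fold (1), examined over alternatives after seeing the data, was 4 with upper-quartile scaling and under the stricter filter, 2 with limma-voom, and 1 to 4 when 1 library was left out. The median log2 fold change of the repair genes (-0.52) was -0.47 with upper-quartile scaling, -0.55 with library totals and with no filter, -0.38 under the stricter filter, -0.54 with DESeq2, -0.36 on log2(FPKM + 1) and -0.48 on log2(FPKM + 0.1), and -0.58 to -0.46 when 1 library was left out. Of the 5 genes that did not pass, 4 changed sign, still without passing. Rad51c was at 0.01 with upper-quartile scaling and between -0.14 and 0.07 when a library was left out. Ercc2 was at 0.04 with upper-quartile scaling, at 0.05 under the stricter filter, and between -0.07 and 0.09 when a library was left out. With a library left out, Ercc1 lay between -0.03 and 0.12 and Prkdc between -0.16 and 0.00. At a threshold of 0.01, Rad51b, Fancc, Xpa and Ddb1 no longer passed. Xrcc1 kept its sign (-0.19 to -0.07) and passed in the fits named beside its values.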
